A study of Mus musculus with 4 samples.

Results

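The genes for cytosolic ribosomal proteins were taken by symbol: Rpl or Rps followed by a digit, together with Rpsa, Rplp0, Rplp1 and Rplp2. Symbols ending in -ps, which mark pseudogenes, and the Rps6k kinases were left out. This gave 86 of the 32285 genes in the count matrices, and all 86 had a UMI (a unique molecular identifier, which counts transcript molecules) in the cells kept. The rule reads names only. It therefore takes in Rps19bp1, which encodes a protein that binds RPS19, Rpl7l1, a nucleolar relative of RPL7, and paralogs such as Rps27l, Rpl22l1 and Rpl36al. It leaves out genes such as Fau and Rack1, whose products are also part of the ribosome.

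The cells were B cells from mouse spleen, taken on day 8 after mice were immunized with hen egg lysozyme on sheep red blood cells (SRBC-HEL) and profiled by 3′ single-cell RNA sequencing on the 10X platform. Donor B cells carried MD4, a transgenic antigen receptor for hen egg lysozyme, were transferred as CD45.1+ and CD45.2+ mixtures into CD45.1+ WT recipients and were sorted as HEL-binding CD95+ cells. The CD45.2+ sort held BCL2.Tg MD4 cells that were either Dock8 wt/wt (wt) or Dock8 cpm/cpm (cpm), an ENU-induced allele described as DOCK8-null, and the BCL2 transgene is restricted to B cells. In every mouse the CD45.1+ sort held Dock8 wt/wt MD4 cells without the transgene, so that "cpm recipients" below names the mouse and not the genotype of its CD45.1+ cells.

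There were 3 mice in each group, each sort gave 1 mRNA library, and a hashtag antibody marked the mouse of each cell. Adult mice of both sexes were used, per the study's methods. After hashtag assignment and filtering, 3204 CD45.1+ cells and 6488 CD45.2+ cells were kept, with a median of 5273.5 and 6535.5 UMIs. The study reports more CD45.2+ cells after its own filtering. The CD45.2+ cpm mice held 57, 44 and 101 cells and the CD45.2+ wt mice 2007, 2607 and 1672. The cpm number depends on the hashtag call: a rule of 3-fold over the next hashtag gave 229, 160 and 481 cells, and the centred log ratio taken over each cell gave 302, 145 and 468. The cell barcode was shared between the libraries for 6 kept cells. B cell transcripts were present in every mouse outside the plasma cell clusters: Cd79a, of the antigen receptor complex, had 1996 to 2547 and Fas, which encodes CD95, 51.1 to 98.4 CPM (a gene's UMIs divided by all UMIs of the summed cells, on the usual fixed scale).

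Ribosomal proteins form the small (Rps) and large (Rpl) subunits around the ribosomal RNAs, and most are needed in equal numbers for each ribosome. Many of their mRNAs begin with a 5′ terminal oligopyrimidine (TOP) tract, through which mTORC1 and LARP1 set how well they are translated. In the germinal centre, light zone (LZ) cells compete for antigen and T cell help, dark zone (DZ) cells divide and mutate their receptors, and plasma cells (PC) turn to antibody secretion, states that place different demands on protein synthesis.

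The first bases of the transcripts are shown because they hold a feature that the choice of genes did not use and that was more frequent among ribosomal protein genes than among all promoters. Each line gives 10 bases before and 20 bases from the annotated RefSeq start in GRCm38.p6, 5′ to 3′ on the gene's strand, with the pyrimidine run that begins in C and lies at or near the start in capitals. The genes shown are paralogs and other genes described below, with Rps6 and Rplp2 as further examples of the tract. Rps6, the S6 kinase substrate of the small subunit, lies at chr4:86857348-86857377 (minus strand), Rpl35 at chr2:39005112-39005141 (minus), Rplp2 at chr7:141447641-141447670 (plus), Rpl38 at chr11:114668570-114668599 (plus), Rps18 at chr17:33955646-33955675 (minus), Rpl14 at chr9:120571507-120571536 (plus), Rpl22l1 at chr3:28805498-28805527 (plus), Rps27 at chr3:90213629-90213658 (minus), Rps27rt at chr9:114982720-114982749 (minus), Rps27l at chr9:66946076-66946105 (plus) and Rpl36al at chr12:69184048-69184077 (minus).
Rps6: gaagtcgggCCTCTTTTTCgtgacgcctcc
Rpl35: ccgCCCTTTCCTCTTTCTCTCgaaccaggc
Rplp2: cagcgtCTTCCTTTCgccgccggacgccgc
Rpl38: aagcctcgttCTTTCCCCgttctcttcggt
Rps18: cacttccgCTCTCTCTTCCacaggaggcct
Rpl14: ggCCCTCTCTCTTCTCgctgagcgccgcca
Rpl22l1: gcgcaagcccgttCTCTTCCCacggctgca
Rps27: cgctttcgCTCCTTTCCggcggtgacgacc
Rps27rt: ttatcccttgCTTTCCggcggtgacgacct
Rps27l: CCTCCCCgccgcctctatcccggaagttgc
Rpl36al: ccgtcgctcaggttcagttccgacttccgc

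A C at the annotated start followed by at least 4 bases that are each C or T was read on the gene's strand in 14 of 78 promoters of 66 ribosomal protein genes, or 17.9%, against 2.51% of 32851 promoters in the RefSeq table. A C followed by at least 5 such bases anywhere in the 25 bases from 10 before to 15 after the start was read in 46.2%, against 18.5% of all promoters. On the opposite strand the second pattern stood in 6.41% and 21%. A match describes letters in the annotated window and not the start that these cells used. Rpl36al holds no such run, Rps27l holds one in its first bases shown and not at the annotated start, and Rps27rt shares its sequence downstream of the start with Rps27.

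Cells were clustered without the ribosomal protein genes and without sex-linked genes, and clusters were named from marker genes only. The classes were LZ-like (Cd83, Egr and Nfkbia genes among its markers), DZ-like (histone, Mcm and mitosis genes), PC-like (Jchain, Mzb1, Xbp1), early or naive-like (Ighd, Klf2, called Early below) and activated or memory-like (Plac8, Cd38, Ccr6 or S100a6, Ahnak, Vim, called Act/Mem). The classes still come from the same cells, and each comparison between classes is against the LZ cells of the same sort, so that those of one sort are not independent of each other. Values are given per mouse with counts summed over its cells of a class, and a mouse entered with at least 10 cells.

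Ribosomal protein transcripts took the largest part of UMIs in Act/Mem and Early cells, less in LZ, less again in DZ and least in PC. In the CD45.1+ sort the share ran from 28.0% to 29.5% of UMIs in the LZ cells of the 6 mice (median 28.9%). It ran from 24.4% to 26.8% in DZ cells (median 25.6%) and from 15.7% to 17.9% in PC (median 17.3%). In Act/Mem cells it lay between 35.0% and 38.2% (median 36.1%). The 5 mice with enough Early cells had 34.1% and 37.5% in cpm recipients and 34.0%, 33.3% and 35.8% in wt recipients. No mouse's value in any of these classes overlapped those of LZ, and the order PC, DZ, LZ, then Early and Act/Mem held in each mouse, while Early and Act/Mem overlapped.

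The differences from LZ were larger than the spread between mice. The share was -3.19 ± 0.592 percentage points in DZ (SD of the within-mouse difference, n = 6), -11.8 ± 1.24 in PC and 7.55 ± 1.64 in Act/Mem, with the same sign in 6 of 6 mice. Each gave p = 0.03125 in a two-sided exact permutation test of sign changes, the smallest that 6 pairs allow. Early cells were higher by 6.23 ± 2.05 points in 5 of 5 mice (exact permutation p = 0.0625, the smallest for 5 pairs). This Early difference was 2.37 points with clustering at resolution 0.6, 2.53 with log-normalized clustering and 4.10 with hashtag values scaled by the centred log ratio (CLR) over each cell. In the CD45.2+ wt cells the differences were -1.77 ± 0.0692 in DZ, -12.6 ± 0.495 in PC, 3.43 ± 1.33 in Early and 6.05 ± 1.69 in Act/Mem, each with 1 sign in 3 of 3 mice, where the exact test cannot go below p = 0.25. The Early value of CD45.2+ wt cells was 0.10 points at resolution 0.6, 0.098 with CLR over each cell and 1.43 with log-normalized clustering.

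**Figure D1:**
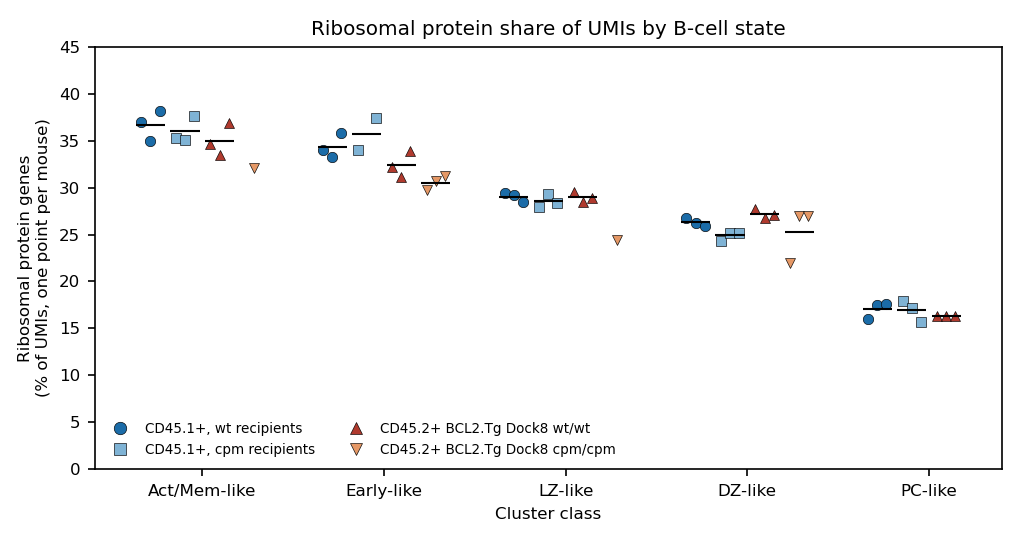
Percent of UMIs in the 86 ribosomal protein genes (y axis) by cell class (x axis) for each sort. Points are mice with at least 10 cells and lines are means. PC lie lowest, with 15.7% to 17.9% in the CD45.1+ sort, and Early and Act/Mem cells of wt mice lie highest, above 31% in each.

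Immunoglobulin transcripts took 33.6% ± 1.51 of the UMIs of CD45.1+ PC and 2.60% ± 0.101 in LZ (SD, n = 6). With immunoglobulin UMIs taken out of the total, the ribosomal share of CD45.1+ PC was 25.6% ± 1.07 against 29.6% ± 0.615 in LZ, so that the difference narrowed to -4.01 points. In CD45.2+ wt cells it narrowed to -5.42 points. The other differences moved by less than 0.5 points (DZ -3.43, Act/Mem 7.91 in the CD45.1+ sort).

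A share is not an amount. Ribosomal protein UMIs per cell were 1064 ± 95.1 in CD45.1+ LZ cells (SD, n = 6), 1297 ± 104 in Early cells (n = 5), 1779 ± 219 in PC, 1951 ± 147 in DZ and 2176 ± 131 in Act/Mem cells. DZ cells and PC thus held more ribosomal protein UMIs per cell than LZ cells with a lower share of the total. Median UMIs per cell were 3559 in LZ, 3653 in Early, 5589 in Act/Mem, 7077 in DZ and 9914 in PC. Cells with more UMIs had a somewhat higher share within each named class of B cells, with Spearman correlations across cells from 0.11 (CD45.1+ Act/Mem) to 0.47 (CD45.2+ DZ), a description over cells that share a library.

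The share also differed among clusters of a class. The 3 DZ clusters of CD45.1+ wt recipients stood at 24.0% ± 1.15 (histone genes and Top2a), 28.5% ± 0.662 (Mcm genes of S phase entry) and 25.5% ± 1.45 (Cdc20, 2 mice). In CD45.2+ wt cells the same clusters had 26.5% ± 0.557, 28.7% ± 0.291 and 26.7% ± 0.664. Of the 2 Act/Mem clusters, that with Plac8, Cd38 and Ccr6 had 39.2% ± 0.505 in CD45.1+ wt recipients, and that with S100a6, Ahnak and Vim had 32.2% ± 0.578 (n = 3). In CD45.2+ wt cells they had 36.5% ± 1.32 and 29.3% ± 1.23, beside 29.0% ± 0.511 in LZ (n = 3). The S100a6 cluster overlapped LZ there, with 28.6%, 28.6% and 30.7% in mice 1, 2 and 3 against 29.5%, 28.5% and 28.9%. These gaps are given as values without a test because the clusters were cut from the same cells.

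Single genes were tested on counts summed per mouse with edgeR's quasi-likelihood test, mouse as block, over all genes that passed a filter on low counts, with Benjamini-Hochberg adjustment at 0.05. A fold is the log2 difference from LZ after TMM scaling with its standard error, and a level is in CPM of the summed cells, a count of molecules that is not divided by transcript length. Of the 86 genes, 83 passed the filter (82 for Early cells of the CD45.1+ sort). The 3 lowest, Rpl3l, Rpl10l and Rpl39l, had 1, 3 and 35 UMIs in all kept cells. The highest was Rps29, a small-subunit protein, at 8232 CPM, followed by Rps24 at 6990 CPM.

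In DZ cells of the CD45.1+ sort most ribosomal protein genes were lower than in LZ cells while a small set was higher. There 61 of 83 fell and 5 rose, against 24.8% of all 6576 genes tested that fell and 24.9% that rose. The median of the 83 was -0.22 on the log2 scale, and that of all genes -0.04. In CD45.2+ wt cells 22 fell (16.5% of all genes), 15 rose (20%) and 46 were not called, with a median of -0.05. The CD45.1+ fit had 6 mice and the CD45.2+ wt fit 3.

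The genes that rose in CD45.1+ DZ cells included Rps27l, Rps19bp1, Rpl14 and Rps2. Rps27l, a p53-inducible paralog of Rps27, had 198 to 284 CPM in LZ cells of the 6 mice (median 243) and 353 to 458 in DZ cells (median 446). The groups did not overlap, and the gene was higher by 0.78 ± 0.08 on the log2 scale (adjusted p = 1.3e-22). In CD45.2+ wt mice 1, 2 and 3 it had 282, 254 and 326 CPM in LZ and 501, 497 and 468 in DZ cells, a log2 difference of 0.82.

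Rps27 itself, whose product lies in the small subunit, moved the other way. It had 5159 to 6251 CPM in CD45.1+ LZ cells (median 5740) and 3620 to 4054 in DZ cells (median 3775), a fall of -0.65 ± 0.04 (edgeR adjusted p = 1.4e-48). CD45.2+ wt mice had 6803, 7286 and 6285 CPM in LZ and 4859, 4920 and 4689 in DZ cells (log2 difference -0.46). The retrogene Rps27rt, whose sequence is nearly that of Rps27 so that reads can be split between them, fell by 0.76 and 0.43 on the log2 scale in the 2 sorts.

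Rps2, which encodes a protein of the small-subunit entry region, rose in both sorts. CD45.2+ wt mice had 2336, 2122 and 2511 CPM in LZ and 3859, 3604 and 3590 in DZ cells, without overlap (0.70 ± 0.07). CD45.1+ mice ran from 2431 to 3152 CPM (median 2671) in LZ and from 3055 to 3651 (median 3544) in DZ cells, which overlap (0.27 ± 0.05, edgeR adjusted p = 2.4e-08). Rpl14 of the large subunit rose by 0.39 and 0.52 in the CD45.1+ and CD45.2+ sorts.

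The pair Rpl22 and Rpl22l1 encodes paralogs of the large subunit that can stand in for each other, and Rpl22 is known for a role in lymphocyte development. Rpl22 fell in CD45.1+ DZ cells by 0.26 on the log2 scale, and Rpl22l1 stood at 0.12 (edgeR adjusted p = 0.065). In CD45.2+ wt cells Rpl22l1 rose from 1035, 834 and 1082 to 1358, 1415 and 1272 CPM (0.50 ± 0.09) while Rpl22 was at -0.04 (adjusted p = 0.70). The stalk genes behaved alike only in part: Rplp1, whose acidic protein helps recruit elongation factors, fell by 0.16 in CD45.1+ DZ cells, and Rplp0 (0.04) and Rplp2 (-0.06) were not called. Among genes mutated in Diamond-Blackfan anaemia, Rpl11 (-0.28) and Rps19 (-0.16) fell, and Rpl5 (-0.13) fell after TMM scaling and was not called on library totals. Rpl11 and Rpl5, with 5S rRNA, also bind and restrain MDM2.

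**Figure D2:**
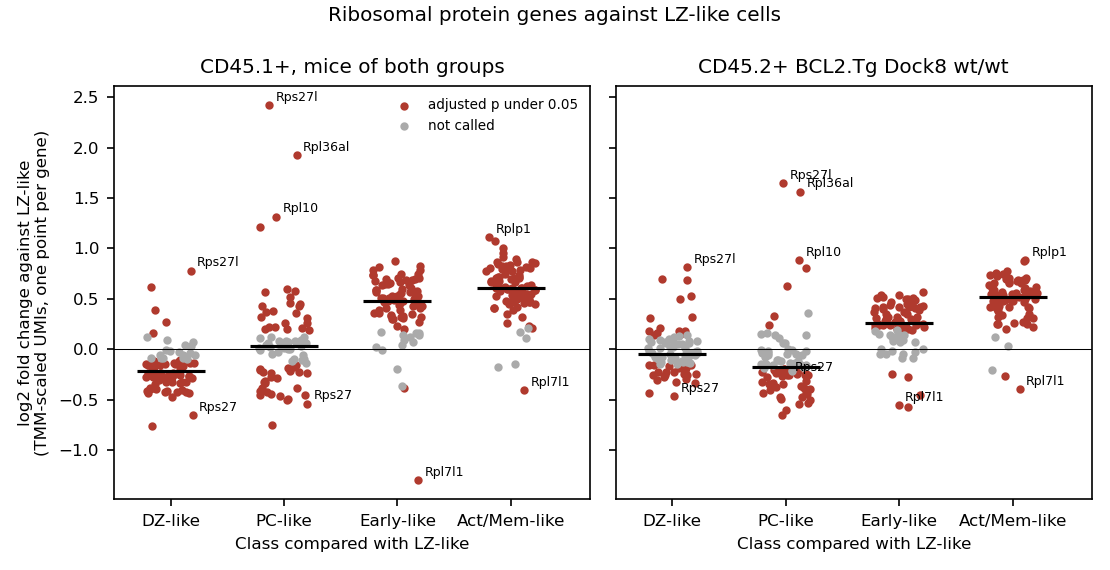
Log2 difference from LZ cells (y axis) of each ribosomal protein gene tested, by class (x axis) and sort (panels), after TMM scaling. Points are genes, red where the edgeR adjusted p was below 0.05, and the bar is their median. Act/Mem and Early points lie mostly above 0. DZ points lie mostly below 0 in the CD45.1+ sort, and on both sides in CD45.2+ wt cells (48 below, 35 above). PC points lie on both sides of 0 in the CD45.1+ sort (37 below, 46 above) and mostly below 0 in CD45.2+ wt cells (67 below, 16 above). In PC of the CD45.1+ sort Rps27l, Rpl36al, Rpl10 and Rpl41 stand apart at the top.

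In PC the counts of genes that rose and fell depended on the sort and on the scaling. After TMM scaling, 25 of 83 rose and 27 fell in the CD45.1+ sort (33.6% and 34.5% of all 5786 genes tested), with a median of 0.03 beside -0.03 for all genes. These CD45.1+ counts lie near the shares of all genes, and nothing is read from them. In CD45.2+ wt cells 7 rose and 38 fell (24.1% and 21.9%), with a median of -0.18. The scaling decides the sign of many of these. On library totals, which give the immunoglobulin transcripts their full weight, the median of all genes shifted to -0.89 and -0.74. There 4 of the ribosomal genes rose and 78 fell in the CD45.1+ sort, 2 and 77 in the CD45.2+ sort. How many of all genes were called on library totals is not given here, so these counts show only how the calls depend on scaling. Relative to the median of all genes the ribosomal genes stood at 0.06 under both scalings in the CD45.1+ sort and at -0.17 in the CD45.2+ sort. A scaling moves these genes and all genes alike, so the equal values are no check.

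The 4 genes that rose in CD45.1+ PC on library totals as well were Rps27l, Rpl36al, Rpl10 and Rpl41, and Rps27l and Rpl36al did so in CD45.2+ wt PC. Rps27l reached 649 to 836 CPM (median 705) in CD45.1+ PC, from a median of 243 in LZ (2.42 ± 0.09 after TMM, adjusted p = 2.1e-22). CD45.2+ wt mice had 470, 487 and 673 CPM in PC (1.65 ± 0.11). Rps27l was thus higher than in LZ cells both in DZ cells and in PC, and Rps27 was lower in both.

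Rpl36al, a paralog of the X-linked Rpl36a, had 910 to 1039 CPM (median 992) in CD45.1+ LZ cells and 1970 to 2206 (median 2128) in PC (1.93 ± 0.07, edgeR adjusted p = 4.9e-23). In CD45.2+ wt mice 1014, 970 and 1082 CPM stood against 1737, 1754 and 1956. Rpl36a rose by 0.43 after TMM scaling in the CD45.1+ sort, and was lower on library totals (-0.42). Rpl10, an X-linked gene for a protein that joins the large subunit late in its assembly, rose from 1496 to 1880 CPM (median 1660) to 2163 to 2553 (median 2342). Its log2 difference was 1.31 ± 0.07 in CD45.1+ and 0.89 ± 0.09 in CD45.2+ PC. Rpl41, which encodes the shortest ribosomal protein, went from a median of 5369 to 7001 CPM without overlap in CD45.1+ mice (1.21 ± 0.06), and overlapped in CD45.2+ wt mice, with 5743, 5522 and 5759 in LZ and 5426, 5581 and 7008 CPM in PC.

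The falls that follow held after TMM scaling and on library totals. The totals shift all genes down in PC, so that they are no check on a fall seen after TMM scaling. The CPM values of these genes did not overlap in either sort. That held for 79 of the 83 genes in CD45.1+ and 82 in CD45.2+ wt PC, and for 63.5% and 68.4% of all genes. Rps27 went from a median of 5740 to 2200 CPM in CD45.1+ mice (-0.54 ± 0.06 after TMM), with 2422 CPM the highest value in PC. Rpsa, the laminin receptor gene whose product binds the small subunit, had 5204 to 6011 CPM (median 5518) in LZ and 2012 to 2460 (median 2333) in PC (-0.45 ± 0.07). Rpl22l1 fell from a median of 1071 to 454 CPM (-0.49 ± 0.08) and from 1035, 834 and 1082 to 404, 381 and 483 CPM in CD45.2+ wt mice. Rpl12 of the stalk base fell by 0.46 and 0.65 in the 2 sorts, and Rps19 by 0.39 and 0.61. Within the stalk, Rplp0 (0.38) and Rplp2 (0.31) rose after TMM scaling in CD45.1+ PC and turned negative on library totals (-0.47 and -0.54), and Rplp1 was at 0.00. Rps6 was at 0.01, and Rpl11 at 0.12.

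**Figure D3:**
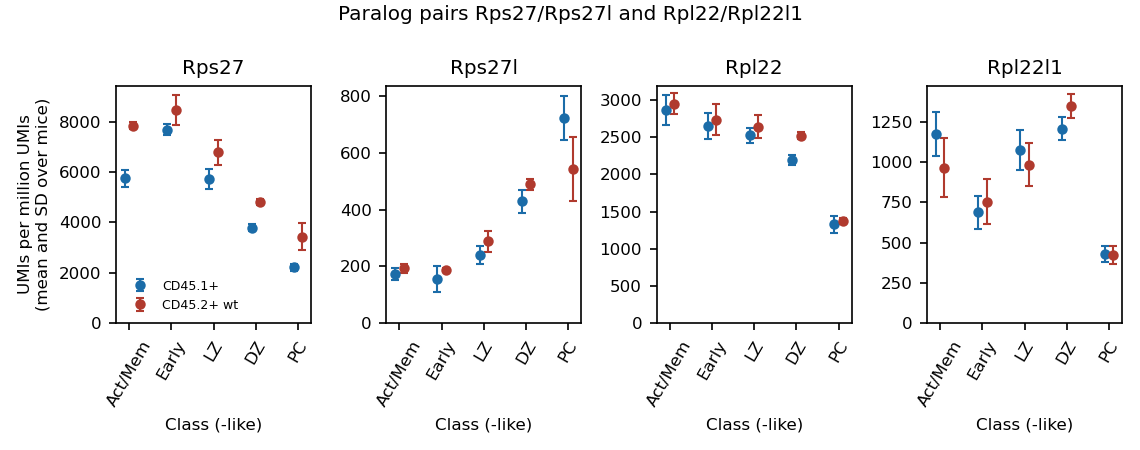
Level in CPM (y axis, linear from 0, scaled per panel) of Rps27, Rps27l, Rpl22 and Rpl22l1 by class (x axis). Points are means over mice with at least 10 cells and bars are SDs, for CD45.1+ and CD45.2+ wt cells. Rps27l rises from LZ to DZ cells and PC while Rps27 falls, and Rpl22l1 in CD45.1+ PC has a median of 454 CPM against 1071 in LZ.

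Nearly all ribosomal protein genes rose in Act/Mem cells, and most of those tested rose in Early cells after TMM scaling. In Early cells 67 of 82 rose and 2 fell in the CD45.1+ sort (16.2% and 12.5% of all 3430 genes tested), and 56 rose and 5 fell in CD45.2+ wt cells (13.7% and 13%). The median was 0.48 and 0.26, beside -0.02 and 0.00 over all genes. In Act/Mem cells 77 of 83 rose and 1 fell (22.5% and 22.5%), and 78 rose and 2 fell in CD45.2+ wt cells (14.4% and 12.2%), with medians of 0.61 and 0.52. On library totals the risers in Early cells were 50 with 6 falls, and 35 with 11 falls. The share of all genes under that scaling is not given here, so these counts show only how the calls depend on scaling. The Early counts also moved with the definition of the cells: with log-normalized clustering 32 genes were called in either direction in place of 69 in the CD45.1+ sort, and 38 in place of 61 in CD45.2+ wt cells, where clustering at resolution 0.6 gave 24 and CLR over each cell 23. Shares of all genes under these definitions are not given either.

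The largest rise in Act/Mem cells was that of the stalk gene Rplp1 in both sorts. It had 3695 to 3987 CPM (median 3872) in CD45.1+ LZ cells and 6468 to 7020 (median 6677) in Act/Mem cells (1.11 ± 0.06, edgeR adjusted p = 6.9e-22). CD45.2+ wt mice rose from 3769, 3743 and 3386 to 5480, 5262 and 5913 CPM (0.88 ± 0.07). Early cells of the CD45.1+ sort had 5716 and 6109 CPM of Rplp1 in cpm recipients 1 and 3 and 5352, 5295 and 6352 in wt recipients, again above every LZ value (0.81 ± 0.08).

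Rps12 followed with a median of 2853 CPM in LZ and 4855 in Act/Mem cells (1.08 ± 0.06), then Rps18 (1.0 ± 0.06) and Rplp0 (0.95 ± 0.06), the neutral protein that anchors the stalk. Rplp0 lay between 4040 and 4504 CPM in LZ and between 6413 and 7016 in Act/Mem cells. In Early cells Rps24, which has a known link to Diamond-Blackfan anaemia, rose most. It had 6519 and 6369 CPM in the LZ cells of cpm recipients 1 and 3 and 6816, 6926 and 6639 in those of wt recipients, against 10055, 10513, 10611, 10217 and 10709 in their Early cells in the same order (0.88 ± 0.08, edgeR adjusted p = 1.8e-28). Rpl39, at the exit tunnel of the large subunit, was higher by 0.75 in Early and by 0.85 in Act/Mem cells, Rpl38, known from patterning of the mouse skeleton, by 0.66 and 0.72, and Rps19 by 0.71 and 0.86.

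Few genes went against the rise, and those called in the CD45.1+ sort were Rpl7l1 and, in Early cells, Rpl22l1. Rpl7l1 had 106 and 91.0 CPM in LZ cells of cpm recipients 1 and 3 and 106, 93.9 and 111 in wt recipients, and 32.3, 81.2, 25, 22.5 and 37.5 CPM in Early cells (-1.30 ± 0.34, edgeR adjusted p = 8.2e-04). Those Early cells numbered 24, 13, 34, 25 and 35 in the same order, with medians of 3533 to 3925 UMIs per cell. Each Early level of Rpl7l1 thus rests on a handful of molecules. Rpl22l1 fell by 0.38 in Early cells of the CD45.1+ sort and rose by 0.46 in Act/Mem cells, and Rpl22 rose by 0.50 in the latter. Rps27l had 182, 182 and 195 CPM in Early cells of CD45.2+ wt mice, below all 3 LZ values (-0.46 ± 0.10, adjusted p = 9.5e-04), while in the CD45.1+ sort the difference of -0.36 was not called (adjusted p = 0.14). Rpl5, a core member, was at 0.11 in CD45.1+ Act/Mem cells (adjusted p = 0.21) and fell in CD45.2+ Early cells by 0.28.

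Each gene's share of the ribosomal protein UMIs was tested the same way. In DZ cells of the CD45.1+ sort 31 genes took a larger part, 21 a smaller one and 31 were not called, beside 50.5% of all genes called when scaled in the same way. PC gave 24, 32 and 27 (67.1%), Early cells 22, 27 and 33 (50.3%) and Act/Mem cells 24, 31 and 28 (80.2%). The SD of the log2 difference within the group was 0.23 in DZ, 0.26 in Act/Mem, 0.32 in Early and 0.49 in PC. In PC 14 genes lay more than 0.5 from the group on the log2 scale, and in DZ 5 did.

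Other genes of the translation machinery, from lists by function, are given beside the ribosomal proteins. Of the ribosomal proteins outside the name rule, Fau (0.32) and Rack1 (0.58) were higher in CD45.1+ Act/Mem cells, and both were lower in CD45.1+ DZ cells (-0.56 and -0.25). Of the elongation factors, Eef1a1 was at -0.27 in DZ and 0.31 in Act/Mem cells of the CD45.1+ sort and Eef2 at -0.34 and 0.33, all with adjusted p below 0.05. Translation factors as a list had 12 of 23 higher and 5 lower in Act/Mem cells and 8 higher and 9 lower in DZ. The counts of these lists are read against the share of all genes called in the CD45.1+ sort, higher and lower, which was 24.9% and 24.8% in DZ, 16.2% and 12.5% in Early, 22.5% and 22.5% in Act/Mem cells and 33.6% and 34.5% in PC, and against 20% and 16.5% in DZ cells of CD45.2+ wt mice. The translation factors in DZ cells, and the growth signalling genes given further on, lie near these shares, and nothing is read from them.

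Ribosome assembly factors, which act in the nucleolus and are not part of the finished ribosome, were called higher more often than lower in DZ cells and lower more often than higher in the other classes. In DZ cells 15 of 43 tested rose and 2 fell in the CD45.1+ sort, with a median of 0.22, and 15 of 44 rose and 0 fell in CD45.2+ wt cells. In Early cells 0 of 21 rose and 8 fell, in Act/Mem cells 1 of 30 rose and 12 fell (median -0.39), and in PC 4 of 36 rose and 17 fell. Ncl, the nucleolar protein nucleolin, was at 0.64 ± 0.06 in DZ, -0.81 ± 0.14 in Early, -0.65 ± 0.09 in Act/Mem cells and -0.61 ± 0.09 in PC, each with an adjusted p below 0.05. Npm1, a nucleolar chaperone, rose by 0.39 in DZ and by 0.48 in Act/Mem cells and fell by 0.86 in PC.

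Genes for mitochondrial ribosomal proteins, which serve the organelle's own ribosome, rose more often than they fell in DZ cells: 36 of 75 rose and 4 fell in the CD45.1+ sort, and 47 of 78 rose and 0 fell in CD45.2+ wt cells. Act/Mem cells gave 9 higher and 10 lower of 66, and Early cells 1 higher and 8 lower of 55. The host transcripts of small nucleolar RNAs, many of which carry a TOP tract, gave 1 higher and 3 lower of 9 in CD45.1+ DZ cells and 4 higher and 0 lower of 7 in Act/Mem cells. Gas5 was at -0.97 ± 0.07 in DZ, -1.68 ± 0.10 in PC, 0.50 ± 0.11 in Early and 0.47 ± 0.08 in Act/Mem cells, and Zfas1 at -1.71, -3.35, 1.32 and 1.12. Of the growth signalling genes, 3 of 10 rose and 1 fell in CD45.1+ DZ cells, and Myc was at -0.54 ± 0.25 (adjusted p = 0.056).

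Cells of the 2 sorts were compared within the 3 wt recipients. The comparison sets BCL2.Tg CD45.2+ against CD45.1+ Dock8 wt/wt cells of the same mouse, and the transgene, the sort and the library cannot be told apart. The set outside PC holds all B cell clusters but PC and includes the unnamed ones. Its total share was 30.9% ± 1.01 in CD45.2+ and 30.6% ± 1.32 in CD45.1+ cells (difference 0.22 points ± 0.631, exact permutation p = 0.75). Its make-up, pooled over wt recipients, differed between the sorts. LZ cells were 10.6% in the CD45.2+ sort against 33.9% in the CD45.1+ sort, and Early cells 21.0% against 7.19%. Act/Mem cells were 32.4% against 25.9%, DZ cells 25.1% against 28.4% and the unnamed cluster 12 4.06% against 0.535%. The part of this make-up in the total share and in the genes called outside PC was not tested. Within classes the CD45.2+ cells were higher by 0.88 points ± 0.317 in DZ and lower in Early (-1.995 ± 0.174) and Act/Mem cells (-1.70 ± 0.549), each at the smallest exact permutation p = 0.25 of 3 pairs, and LZ differed by -0.10 points (p = 1, exact permutation). Depth differed within classes too. LZ cells of wt recipients 1, 2 and 3 had medians of 6356, 4830 and 5671 UMIs in the CD45.2+ sort and 3912, 3253.5 and 3729 in the CD45.1+ sort. The DZ cluster with histone genes had 13432, 10725 and 11384 against 8286.5, 6875 and 8218. The part of depth in these differences was not tested. Of the single genes, 10 of 83 were higher and 13 lower in CD45.2+ cells, where 1.67% and 1.35% of all 10467 genes were called. The count of 23 rests on which mice enter: it was 3 without wt replicate 2, 6 without wt replicate 1 and 29 without wt replicate 3, 6 without the replicate block and 10 with DESeq2. Shares of all genes are not given for these alternatives, and their counts show only that the calls were unsteady. Within classes the counts were 10 and 13 in LZ cells (2.86% and 1.58% of all genes), 24 and 11 in DZ (3.39% and 2.75%), 5 and 22 in Early (0.667% and 0.753%), 6 and 46 in Act/Mem (1.28% and 2.09%) and 4 and 41 in PC (12.2% and 11.3%).

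The ribosomal protein genes called higher in the CD45.2+ library were mostly short and those called lower mostly long, while most genes of either length were not called. Rpl35 had 2243, 2042 and 2337 CPM in CD45.1+ cells of wt recipients 1, 2 and 3 and 3250, 3155 and 3326 in their CD45.2+ cells (0.55 ± 0.05). Rpl39 had 5977, 5704 and 6461 against 8602, 8100 and 8661 (0.48). Rps29 had 7192, 7051 and 7465 against 9988, 9785 and 9921 (0.44). None of these overlapped, as held for 38 of the 83 genes and for 24.5% of all genes. On the other side, Rpl3, the large-subunit protein near the catalytic centre, had 2692, 2647 and 3135 CPM in CD45.1+ and 2137, 2037 and 2466 in CD45.2+ cells (-0.36), and Rpl4 1314, 1250 and 1366 against 1087, 1026 and 1148 (-0.28). Rps3 had 4274, 3986 and 4391 against 3523, 3375 and 3518 (-0.29).

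Across the 83 genes the difference had a Spearman correlation of -0.67 with the longest annotated coding length (GENCODE vM21), and 0.03 across all 9832 genes with a length. Of the 28 genes up to 401 bases 9 were higher and 0 lower, and of the 28 longer than 580 bases 0 were higher and 10 lower. In LZ cells alone the correlation was -0.60, in DZ -0.64, in Early -0.51, in Act/Mem -0.64 and in PC -0.52. The genes in these correlations share both libraries, and they are a description. In the comparisons between classes of the same library the correlation lay between -0.19 and 0.24. Between the Dock8 groups of the same library it lay between -0.31 (CD45.1+ Act/Mem cells) and 0.37 (CD45.2+ Early cells). The cause of the relation was not tested.

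**Figure D4:**
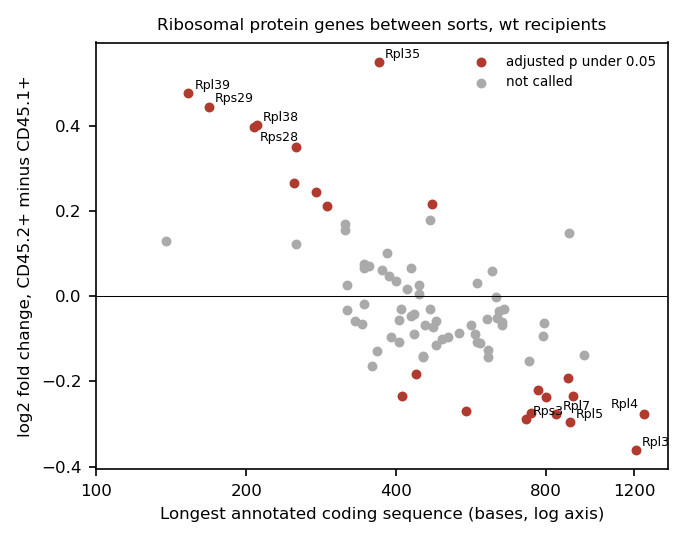
Log2 difference CD45.2+ minus CD45.1+ in wt recipients outside PC (y axis) against the longest coding length in bases (x axis, log scale) for the 83 ribosomal protein genes. Points are genes, red where called by edgeR. Rpl35, Rpl39, Rps29 and Rps28 lie above 0.39 at the short end, and Rpl3, Rpl4 and Rps3 lie below -0.27 at the long end.

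Between Dock8 groups the first check was of the labels. Dock8 had 95.8 to 126 CPM in all 12 combinations of mouse and sort and was not lower in cpm cells, so that its transcript does not mark the genotype here. Xist, the RNA of the inactive X chromosome, had 1292 to 1648 CPM in CD45.1+ cells and CD45.2+ wt cells, and 284, 452 and 316 in CD45.2+ cells of cpm mice 1, 2 and 3. Ddx3y of the Y chromosome had 63.4, 70.3 and 54.3 CPM there, 2.0 to 2.9 in CD45.2+ wt and 0 in CD45.1+ cells. Transcripts of both sex chromosomes thus differed together with the genotype of CD45.2+ cells, so that the sex of the donors and the genotype cannot be told apart. The values moved with the hashtag call. With CLR over each cell Xist had 510, 484 and 483 CPM in CD45.2+ cpm mice, and Ddx3y 3.47, 12.5 and 7.31 in CD45.2+ wt mice. Whether cells of another mouse were assigned to these groups was not tested. Of the ribosomal protein genes named here, Rpl10, Rpl36a, Rpl39 and Rps4x are X-linked.

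Ribosomal protein transcripts took a somewhat smaller share in CD45.2+ cpm than in wt cells once PC were left out. Over all kept CD45.2+ cells, PC included, the values overlapped, with 27.7%, 27.0% and 28.1% in cpm mice 1, 2 and 3 and 28.2%, 25.8% and 27.1% in wt mice. Outside PC the cpm mice had 28.1%, 28.9% and 29.2% and the wt mice 31.2%, 29.7% and 31.6%. The groups did not overlap, and the difference was -2.14 points (28.7% ± 0.556 against 30.9% ± 1.01, SD, n = 3), with an exact permutation p = 0.1, the smallest that 3 mice against 3 allow. CD45.1+ cells, which were Dock8 wt/wt in each of these mice, had 27.9%, 28.7% and 29.9% in cpm recipients and 30.4%, 29.4% and 32.0% in wt recipients, a difference of -1.81 points that overlapped (exact permutation p = 0.2). The difference between sorts, taken within each mouse, differed between the groups by -0.33 points (exact permutation p = 0.4).

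The make-up of the cells differed between the pooled groups. Act/Mem cells, which have a high share, were 21 of 182 CD45.2+ cpm cells outside PC (11.5%) and 1549 of 4780 wt cells (32.4%), and Early cells were 59 (32.4%) and 1004 (21.0%). In the CD45.1+ sort Act/Mem cells were 163 of 1150 (14.2%) in cpm recipients and 339 of 1308 (25.9%) in wt recipients, and LZ cells were 566 (49.2%) and 444 (33.9%). By mouse the CD45.1+ values overlapped, with Act/Mem cells at 9.93%, 20.5% and 14.7% in cpm recipients 1, 2 and 3 and 20.2%, 14.7% and 35.4% in wt recipients, and LZ cells at 50.1%, 37.3% and 55.7% against 31.3%, 53.1% and 23.9%. The unnamed cluster 8, which has a high share too, held 24 of the 182 CD45.2+ cpm cells (13.2%) and 277 of the 4780 wt cells (5.79%). By mouse these values overlapped, with 23.2%, 5.26% and 10.2% in cpm mice 1, 2 and 3 and 5.96%, 5.71% and 5.71% in wt mice. Of the 24 cells, 13 came from cpm mouse 1. The part of this make-up in the difference was not tested, and the shares within classes were as follows. In Early cells the cpm mice had 29.7%, 30.7% and 31.3% and the wt mice 32.2%, 31.1% and 33.9% (-1.84 points, exact permutation p = 0.2). In DZ cells, with 14, 11 and 21 cells in the cpm mice, 22%, 26.9% and 27.0% stood against 27.7%, 26.8% and 27.1% (p = 0.4, exact permutation). CD45.1+ DZ cells had 24.4%, 25.2% and 25.2% in cpm recipients and 26.8%, 26.3% and 25.9% in wt recipients without overlap (-1.41 points, exact permutation p = 0.1), and the CD45.1+ LZ cells differed by -0.51 points (p = 0.3, exact permutation).

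**Figure D5:**
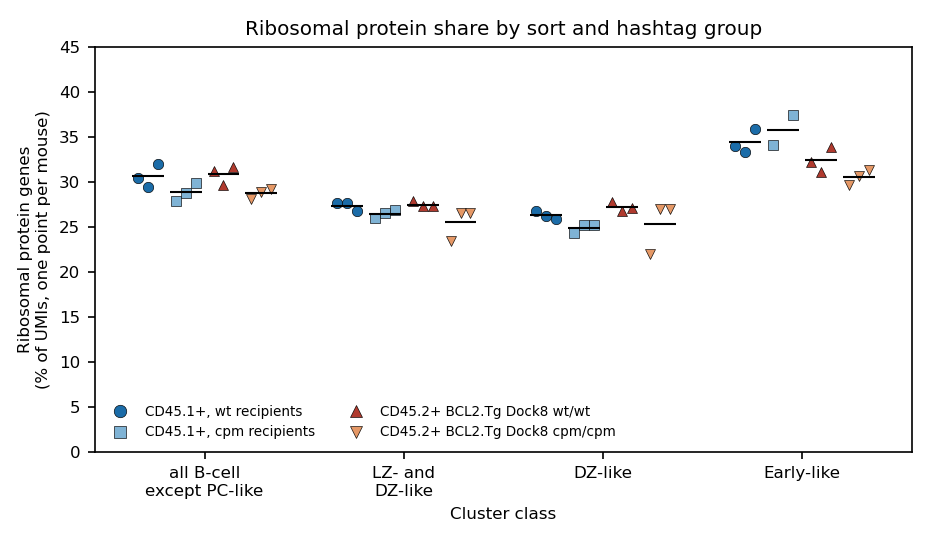
Percent of UMIs in ribosomal protein genes (y axis) for all cells outside PC, LZ and DZ cells together, DZ cells and Early cells (x axis), by sort and Dock8 group of the mouse (symbols). Points are mice and lines are means. Outside PC the cpm mice lie between 27.9% and 29.9% in both sorts, and the wt mice between 29.4% and 32.0%.

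Of the single genes, 2 of 83 fell and 0 rose in CD45.2+ cpm cells outside PC, where 0.137% and 0.0683% of all 10247 genes were called. Rplp0 had 4001, 4185 and 4045 CPM in cpm mice and 5011, 4511 and 5089 in wt mice (-0.37 ± 0.08, edgeR adjusted p = 0.036). Rpl27 had 2860, 2894 and 2980 against 3473, 3346 and 3512 (-0.36 ± 0.07, adjusted p = 0.036). Neither overlapped. The log2 difference was negative for 77 of 83, with a median of -0.21 beside -0.02 over all genes. An unadjusted edgeR p below 0.05 was found for 55 of the 83, beside 808 of all 10247 genes. The count of 2 calls was not steady: without wt replicate 2 it was 24, without wt replicate 3 it was 4 and without any other single mouse 0, and DESeq2 called 28. The shares of all genes in these alternatives are not given here, so the counts show only how unsteady the calls were.

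Of the X-linked genes Rpl39 was at -0.33 (edgeR adjusted p = 0.066), Rpl10 at -0.27, Rps4x at -0.17 and Rpl36a at -0.08, none of them called. In Early cells Rplp1 (-0.40, edgeR adjusted p = 0.030) and Rpl27 (-0.40, adjusted p = 0.045) fell, and 0 rose (0.186% and 0.144% of all genes fell and rose). As a share of the ribosomal protein UMIs neither was called in Early cells; 3 genes took a larger part there, Rpl22l1 (0.63 on the log2 scale, edgeR adjusted p = 0.0030), Rps2 (0.37, adjusted p = 0.032) and Rpl5 (0.51, adjusted p = 0.032), and 0 a smaller one, beside 0.351% of all genes called when scaled in that way. In DZ cells 0 were called by edgeR (0.0451% of all genes), 7 had an unadjusted p below 0.05 (522 of all 8867 genes), and DESeq2 called 1. In LZ and DZ cells together edgeR and DESeq2 called 0 (0.0434% of all genes by edgeR), with 25 at an unadjusted p below 0.05 (457 of all 9206 genes).

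In the CD45.1+ cells outside PC edgeR and DESeq2 called 0 of 83 between cpm and wt recipients, as of all genes (0%). An unadjusted edgeR p below 0.05 was found for 11 (592 of all 8663 genes), and 80 of 83 were negative (median -0.12, beside 0.00 over all genes). In CD45.1+ DZ cells both tools again called 0 (0.089% of all genes by edgeR), with 40 at an unadjusted p below 0.05 (469 of all 6742 genes). They called 0 also in LZ (0.0166%), Act/Mem (0%) and PC (0.0208%) and in LZ and DZ cells together (0.0124%), with 1, 0, 3 and 3 genes at an unadjusted p below 0.05. Over all genes tested these counts were 305 of 6042, 186 of 3669, 286 of 4811 and 357 of 8093, in that order. The test of whether the group difference itself differed between sorts called 0 by either tool outside PC (0.0328%), in DZ (0.0137%) and in LZ and DZ cells together (0.0118%), with 18, 0 and 16 at an unadjusted p below 0.05. Over all genes tested these counts were 534 of 9147, 345 of 7282 and 436 of 8506. The sum of T cell markers outside PC was 5.24 to 21.6 CPM over all mice, that of PC markers 2076 to 3227 CPM, and their part in these differences was not tested.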

How the data were processed

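Members and gene lists were chosen with earlier results of these data known. Per the study's methods and processing notes, the authors aligned reads to mm10 with Cell Ranger 5.0.1 and analysed cells with Seurat 4.0. The deposited matrices hold raw whole-number counts, of UMIs for each gene in each barcode and of the 6 hashtag antibodies, and a further table names the mouse and its group behind every hashtag. The RNA libraries held 37309131 (CD45.1+, 5232 barcodes) and 196679316 UMIs (CD45.2+, 24241 barcodes).

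Hashtags were assigned with HTODemux (CLR over each hashtag, quantile 0.99; Seurat 5.3.0, R 4.3.3), and singlets with under 10% mitochondrial counts and 100 to 5500 genes were kept. SCTransform (3000 variable genes, of which 2972 were left without members and sex-linked genes), 30 principal components and Louvain clustering at resolution 0.9 gave 16 clusters. A cluster took a name from fixed marker lists with at least 3 markers among its 50 highest genes by fold (pseudocount 10 CPM) and 1.5 times those of the next list (this naming rule was set once clusters had been seen). Clusters 8, 12 and 15 stayed unnamed and cluster 14 (T cells) was left out of comparisons. Hashtag doublets were removed, and doublets within a mouse could remain. Scrublet called 211 and 1929 of all CD45.1+ and CD45.2+ barcodes, and the 6% of kept cells with the highest scores were removed as an alternative. Ambient RNA was not corrected.

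Counts were summed per mouse, sort and class and tested with edgeR 4.0.16 (filterByExpr, TMM, quasi-likelihood test). The CD45.1+ and CD45.2+ cells and all classes of 1 recipient came from the same animal, named by its hashtag, so comparisons within mice used mouse as block. Shares were compared by two-sided exact permutation tests over mice. Alternatives were another hashtag rule, hashtag normalization, cell filter, clustering, scaling, count filter, minimum of cells and tool (DESeq2 1.42.0), and leaving out each mouse. The tests were checked on simulated counts. Genes named were the stalk genes, genes of known disease or signalling roles, paralogs, X-linked members, the 5 largest called rises and falls per comparison and the 3 highest and lowest by level. Transcript starts came from RefSeq GRCm38.p6 and coding lengths from GENCODE vM21. A few genes are not reported here. No strand or length correction was applied to counts. Intervals and tests cover the spread between mice only.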

Additional observations from a re-analysis of the deposited data

Results flagged for a closer look

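Barcodes that received no hashtag counts lie outside every comparison above, and they carried ribosomal protein transcripts at a level near that of the kept cells. The share of UMIs was 24.5% over 375 such barcodes of the CD45.1+ library and 25.4% over 9624 of the CD45.2+ library, beside 25.5% and 27.0% in the kept cells. They have no mouse or group, and no comparison was made with them. Hashtag doublets, 1562 and 8048 barcodes, stood at 23.1% and 26.8%.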

How the results depend on the processing

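The directions of the share differences from LZ held under every alternative run. Leaving out 1 mouse gave -3.31 to -3.00 points for DZ, -12.2 to -11.5 for PC and 7.13 to 7.91 for Act/Mem, where 5 pairs cannot pass 0.05, and CLR over each cell gave -3.39, -12.6 and 7.47 with too few pairs to pass. The Early difference was 2.37 at resolution 0.6, 2.53 with log-normalized clustering, where 32 genes were called in place of 69, and 4.10 with CLR over each cell. The percent of all genes called is not given for the alternatives listed here, so their counts show only how the calls moved. On library totals 82 genes were called in PC. There Rps6 (-0.84), Rpl11 (-0.73), Rplp0 (-0.47), Rplp2 (-0.54), Rpl38 (-0.27), Rps24 (-0.25, CD45.2+ -0.11), Rps4x (-0.82) and Rpl36a (-0.42) turned negative. With that scaling Rps27 (-0.011) and Rpl5 (-0.22) turned negative in Act/Mem cells. Rpl22l1 in Early cells turned to 0.14 at resolution 0.6, and with log-normalized clustering Rpsa in Early cells turned to -0.056 and Rps27l in CD45.2+ Act/Mem cells to 0.00037. The causes were not tested.

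The count of 2 genes in CD45.2+ cpm cells was the least steady result. It was 0 with the 3-fold hashtag rule, CLR over each cell, library totals or RLE, 4 without the highest doublet scores or with all 4 groups in one fit, 28 with DESeq2, 33 without a filter on low counts, and 0 to 24 when 1 mouse was left out. For the sort difference between groups the share was 1.10 with CLR over each cell, and the genes called were 4 without a filter and 0 to 2 without 1 mouse.

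The sort comparison in wt recipients gave -0.48 points with the 3-fold rule and 1.07 as a median over cells. Its 23 genes became 14 with the 3-fold rule, 14 with CLR over each cell, 10 with DESeq2 and 3 to 29 without 1 mouse (3 without wt replicate 2, 6 without wt replicate 1). Without the replicate block, which here pairs samples of the same animal, 6 were called. The block changed no other call count by over 1.5 times (61 for DZ, 53 for PC, 70 for Early and 78 for Act/Mem cells without it). Over single genes named, 4841 results of alternatives kept direction and side of the threshold, 240 lost it, 48 gained it and 14 reversed. CD45.2+ cpm classes rest on few cells (5 to 29 per class and mouse in LZ, DZ and Early), which limits what can be seen there.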

Other observations

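Clusters that stayed outside the named classes ran from 15.5% to 37.1% in the ribosomal share. Cluster 8 (365 cells, led by Il4i1, Mir155hg and Cfp, genes of activated B cells) had 37.1% of its UMIs in ribosomal protein genes, the same value as the Act/Mem cluster with Plac8 and Ccr6. Cluster 15 (80 cells) had 33.9%, and the T cell cluster (114 cells) 36.3%. Cluster 12 (215 cells, median 1770 UMIs, 5.74% mitochondrial counts) had 15.5%, near the PC clusters, of which the lowest was at 13.5% and the highest at 22.1%. These are values over cells of all mice, with no test.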
